A study of Mus musculus with 6 samples.

Results

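The expression of 10 adipokines, proteins that fat tissue secretes and by which it signals to other organs, was compared between genotypes. The genes were those for leptin (Lep), adiponectin (Adipoq), resistin (Retn), adipsin (Cfd), retinol-binding protein 4 (Rbp4), neuregulin 4 (Nrg4), apelin (Apln), NAMPT (Nampt), ANGPTL4 (Angptl4) and meteorin-like (Metrnl). They were chosen by name, as well-known secreted products of adipocytes. All 10 were among the 47069 gene identifiers counted, and all 10 passed the filter on low counts that left 17667 genes for testing. The tissue was inguinal subcutaneous white adipose tissue (SC-WAT) from 2-week-old female mice on a C57BL/6 background, 3 Egr1+/+ and 3 Egr1-/- mice, 1 RNA-seq library each. Egr1 encodes a zinc-finger transcription factor that responds rapidly to growth factors and mechanical signals. In Egr1-/- mice it was inactivated in the germline, by a LacZ insertion and a frameshift ahead of the part that codes for the DNA-binding domain, so every cell of the animal lacked it and not adipocytes alone. The animals came from heterozygous crosses, and some of them were littermates.

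Adipocytes store triglyceride, and they also release hormones. Leptin reports the size of the fat store to the brain, and adiponectin raises insulin sensitivity and fat oxidation through its receptors in liver and muscle. Adipsin is the protease that switches on the alternative complement pathway, and resistin in mice opposes insulin action. Nrg4 and Metrnl are associated with thermogenic fat, Angptl4 restrains lipoprotein lipase, and Nampt makes the precursor of NAD in the salvage pathway both inside cells and, as a secreted enzyme, in plasma.

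The counts behind these values were deep. Libraries held 29661984 to 42357981 counts in all, of which 50.0% to 66.3% fell on mitochondrial genes, the highest share being that of Egr1-/- mouse 1, and 12572968 to 18449896 counts remained on nuclear genes. Egr1 itself stood at 10.3, 8.02 and 16.5 CPM, that is, counts scaled to a common library size, in the Egr1+/+ mice and at 3.09, 2.71 and 1.84 CPM in the Egr1-/- mice, so the libraries separated by label at the targeted gene (log2 fold change -2.19, SE 0.299). Its adjusted p was 0.0878 by edgeR and 1.86e-10 by DESeq2, methods described below. Defining markers of mature adipocytes were abundant in every group, with mean values of 2093 and 1969 CPM for Lpl, the lipase of the capillary wall, 349 and 377 CPM for the lipid droplet protein gene Plin1 and 139 and 133 CPM for the adipogenic regulator Pparg in Egr1+/+ and Egr1-/- mice.

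The DNA just upstream of the start sites is shown first, because EGR1 binds GC-rich DNA and the members differ greatly in this respect. RefSeq windows (build GRCm38.p6) of 300 bases, 250 before and 50 after each start, were matched for 9 of the 10 members in 10 windows, Rbp4 having 2 of them, and Angptl4 was not matched. Printed are bases upstream of the start, 5′ to 3′ on the strand of the gene and cut where an annotated exon begins, for the adipocyte hormones Lep and Adipoq, for Nrg4 and Metrnl, which hold EGR1-type motifs, and for Nampt, the member with the highest fold change. Capitals mark the motif named for each in the next paragraph, on either strand, and Nampt has none because neither EGR1-type motif occurred.
Lep, chr6:29059971-29060219, strand +: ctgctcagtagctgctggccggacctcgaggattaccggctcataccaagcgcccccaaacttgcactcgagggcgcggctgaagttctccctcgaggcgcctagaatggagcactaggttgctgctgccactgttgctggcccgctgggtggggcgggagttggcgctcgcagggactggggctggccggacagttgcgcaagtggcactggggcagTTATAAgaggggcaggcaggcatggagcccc
Adipoq, chr16:23146286-23146535, strand +: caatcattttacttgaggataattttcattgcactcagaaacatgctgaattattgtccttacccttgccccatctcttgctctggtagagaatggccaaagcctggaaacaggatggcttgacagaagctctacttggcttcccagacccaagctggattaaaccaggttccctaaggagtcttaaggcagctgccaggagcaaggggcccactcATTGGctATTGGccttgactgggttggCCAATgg
Nrg4, chr9:55283626-55283875, strand -: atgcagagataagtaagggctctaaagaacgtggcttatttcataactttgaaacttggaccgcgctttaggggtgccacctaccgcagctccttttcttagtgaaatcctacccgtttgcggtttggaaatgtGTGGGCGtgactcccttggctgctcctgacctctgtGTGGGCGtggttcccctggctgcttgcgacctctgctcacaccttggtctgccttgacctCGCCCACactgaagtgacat
Nampt, chr12:32820085-32820334, strand +: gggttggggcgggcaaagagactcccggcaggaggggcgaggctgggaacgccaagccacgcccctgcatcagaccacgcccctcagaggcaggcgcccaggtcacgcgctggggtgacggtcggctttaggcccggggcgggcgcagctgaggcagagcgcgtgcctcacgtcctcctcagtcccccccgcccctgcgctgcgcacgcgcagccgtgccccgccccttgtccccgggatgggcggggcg
Metrnl, chr11:121702177-121702410, strand +: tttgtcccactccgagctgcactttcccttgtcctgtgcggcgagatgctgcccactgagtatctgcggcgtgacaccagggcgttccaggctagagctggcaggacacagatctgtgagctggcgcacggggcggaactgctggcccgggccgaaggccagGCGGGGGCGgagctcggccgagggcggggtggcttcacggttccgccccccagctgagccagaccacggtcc

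These windows differed widely in composition. The windows of Adipoq, Retn and Cfd held 0, 2 and 2 CpG pairs against a median of 7 over all 32851 windows of the table, while those of Nampt, Metrnl and Lep held 36, 24 and 19, and the 2 windows of Rbp4 held 5 and 40. GC content ran from 40.7% in the first Rbp4 window to 76.3% in Nampt, beside a median of 52.7% over all windows, and Adipoq stood at 50.0%. The capitals in Lep mark TATAA, searched on both strands, whose forward match began at -31 from the start and overlaps a reverse match by all but a base. This motif was present in 24.9% of all windows and in 2 of the 10 member windows. The capitals in Adipoq mark CCAAT, at -34, -27 and -7, a motif found in 37.4% of all windows. The EGR1 consensus GCGNGGGCG matched once among the 10 member windows, as GCGGGGGCG at -88 in Metrnl, and matched in 5.55% of all windows. A shorter core, GTGGGCG, was searched after the sequences had been seen. It is contained in the consensus whenever N is T, and among the members it matched only in Nrg4, at -116, -80 and, on the opposite strand, -20. That core occurred in 7.97% of all windows, and 48 windows, 0.146%, held 3 or more matches. The limit of 3 was taken from Nrg4, which is among the 48, so this share is no test of Nrg4. The RefSeq starts of Nrg4, Nampt and Metrnl lie inside the genes as GENCODE draws them, so other starts are not covered. A match is a string of letters in a window, and binding was not measured.

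The members spanned a wide range of abundance. Expressed per kb of exon so that genes can be compared, the mean level in Egr1+/+ mice was highest for Cfd, at 1139 CPM per kb, followed by Adipoq at 586, Retn at 235, Lep at 102, Angptl4 at 38.0 and Nampt at 19.0 CPM per kb. No mouse broke this order between neighbouring genes. The remaining 4, Nrg4 at 5.98, Apln at 3.95, Metrnl at 2.94 and Rbp4 at 2.92 CPM per kb, formed a low group in which neighbours overlapped between mice. In Egr1-/- mice the first 4 places were unchanged, at 715, 440.2, 173 and 68.6 CPM per kb, but Angptl4 at 40.0 and Nampt at 32.2 CPM per kb now overlapped, and Nrg4 at 8.41 CPM per kb no longer overlapped the gene below it.

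**Figure D1:**
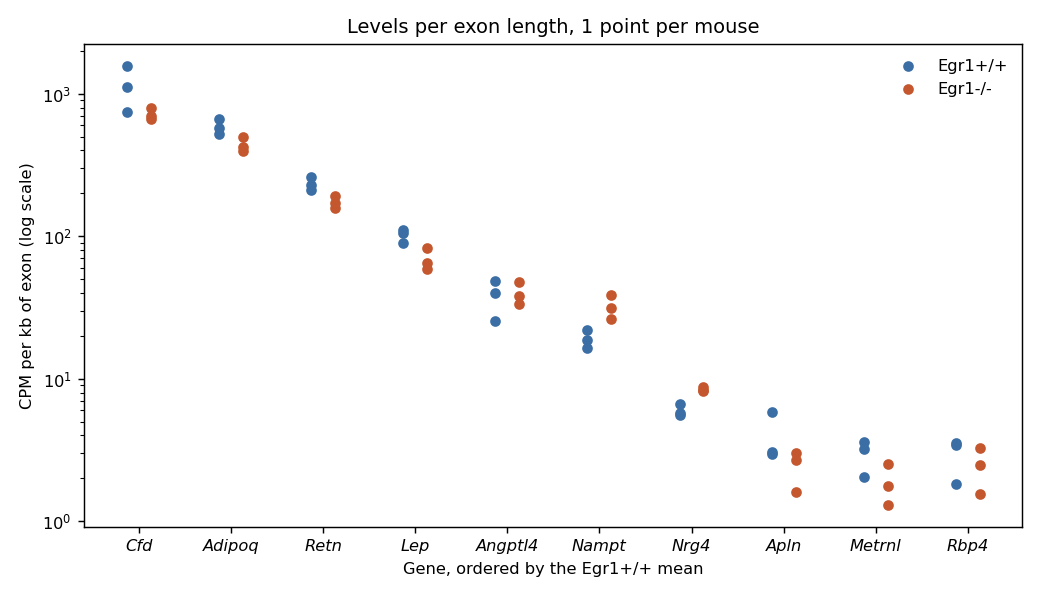
Level of each member per kb of exon (CPM per kb, log axis) in each of the 6 mice, 1 point per mouse, genes ordered by the Egr1+/+ mean and coloured by genotype. Cfd, Adipoq, Retn and Lep lie above the other members in both genotypes, and the Egr1-/- points of Nampt lie above the Egr1+/+ points.

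The comparison of the genotypes asks whether loss of Egr1 goes with a change in the transcripts of what this fat depot secretes. No member passed the test over all genes, the quasi-likelihood test of edgeR at a Benjamini-Hochberg adjusted p of 0.05, in which only 0.0170% of the tested genes were called. Below that bar, 4 members were lower in Egr1-/- mice at an unadjusted p under 0.05 (Lep, Adipoq, Retn and Cfd), where 5.60% of all genes were, and 2 were higher (Nrg4 and Nampt), where 5.06% of all genes were. By DESeq2, run as an alternative, 3 members had an adjusted p under 0.05, Lep lower and Nrg4 and Nampt higher, beside 1.88% of the tested genes. The 3 mice of each genotype did not overlap for 3 members that were lower (Lep, Adipoq and Retn, against 8.10% of all genes) and for 2 that were higher (Nrg4 and Nampt, against 8.15%). The median log2 fold change of the members was -0.43, with 7 negative and 3 positive, and that of all tested genes was 0.00. For any single gene, 3 mice against 3 cannot give an exact two-sided permutation p under 0.1.

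**Figure D2:**
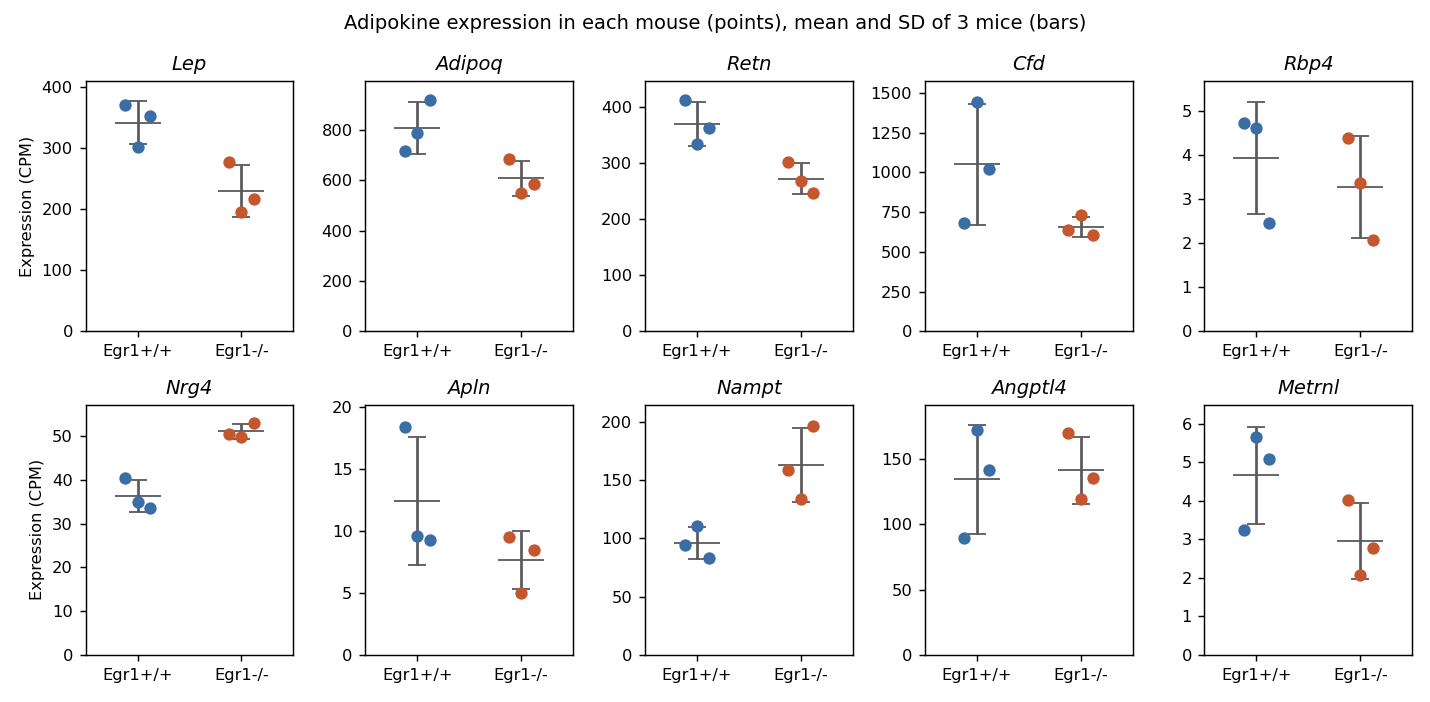
Expression of each member in CPM (linear axes starting at 0) in each mouse, with the mean and SD of the 3 mice of each genotype as bars. Every Egr1-/- point lies below every Egr1+/+ point for Lep, Adipoq and Retn and above every one for Nrg4 and Nampt, and the other 5 members overlap.

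Lep, the satiety hormone made almost entirely by adipocytes (chr6:29060220-29073877, forward strand, protein coding), was counted at 371, 302 and 352 CPM in the Egr1+/+ mice and at 277, 196 and 217 CPM in the Egr1-/- mice. The highest Egr1-/- mouse remained below the lowest Egr1+/+ mouse. The means were 342 ± 35.4 and 230.0 ± 42.1 CPM (SD, n = 3 each), a ratio of 0.673 with a 95% interval of 0.524 to 0.864. On the log2 scale the difference was -0.57 (SE 0.160, edgeR unadjusted p = 0.00591, adjusted p = 0.256), and the DESeq2 adjusted p was 0.0241.

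Adipoq (chr16:23146536-23158028, forward strand), among the most abundant adipocyte secretory transcripts, stood at 718, 788 and 920.2 CPM in Egr1+/+ mice and at 686, 551 and 587 CPM in Egr1-/- mice. The gap between the nearest mice of the 2 genotypes was small next to the spread within each. The log2 fold change was -0.41 (SE 0.152, edgeR adjusted p = 0.375), and DESeq2 gave an adjusted p of 0.151. Retn (chr8:3655770-3660110, forward strand) stood at 413, 335 and 363 CPM in Egr1+/+ mice and at 302, 268 and 247 CPM in Egr1-/- mice. Its mice also separated by genotype, with a log2 fold change of -0.44 (SE 0.138, edgeR adjusted p = 0.300) and a DESeq2 adjusted p of 0.0740. Cfd (chr10:79890853-79892655, forward strand), per kb the most abundant member, was the most variable of these 4 in Egr1+/+ mice, at 682, 1444 and 1024 CPM, against 639.65, 729.9 and 608 CPM in Egr1-/- mice. Its lowest Egr1+/+ mouse fell inside the Egr1-/- range. The log2 fold change of Cfd was -0.67 (SE 0.245, edgeR adjusted p = 0.372). It was -0.37 without Egr1+/+ mouse 2 and -0.92 without Egr1+/+ mouse 1.

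Counts on the members were concentrated on those 4 genes. Together the 10 members took 0.556%, 0.737% and 0.686% of the nuclear counts of the Egr1+/+ animals, against 0.536%, 0.507% and 0.472% of those of the Egr1-/- animals. Of the member counts, Lep, Adipoq, Retn and Cfd held 89.7%, 89.5% and 90.6% in Egr1+/+ mice but only 82.8%, 84.8% and 80.6% where Egr1 was absent. Both shares were lower in each Egr1-/- mouse than in any Egr1+/+ mouse. These shares restate the counts behind the values above, the 4 genes being those lower at an unadjusted p under 0.05, and they are given without a test.

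Nampt (chr12:32819545-32853349, forward strand), the rate-limiting enzyme of NAD salvage, had the highest fold change of the members. It was counted at 94.2, 110.3 and 83.4 CPM in Egr1+/+ mice and at 158, 134 and 197 CPM in Egr1-/- mice, without overlap. The means were 96.0 ± 13.5 and 163 ± 31.7 CPM (SD, n = 3 each), a ratio of 1.70 with a 95% interval of 1.30 to 2.21. The log2 fold change was 0.76 (SE 0.169, edgeR unadjusted p = 0.00143, adjusted p = 0.193), with a DESeq2 adjusted p of 0.00135. A lincRNA gene on the same strand, Gdap10 (chr12:32821872-32826904), lies within Nampt without sharing exonic bases. Gdap10 stood at 13.8, 16.6 and 19.2 CPM in Egr1+/+ mice and at 31.9, 33.8 and 39.3 CPM in Egr1-/- mice (log2 fold change 1.08, edgeR adjusted p = 0.0878, DESeq2 adjusted p = 1.03e-06). Because it lies between exons of Nampt, these counts cannot tell its RNA from unspliced Nampt RNA.

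Nampt was also set against Lep within each mouse, a comparison made after their values were seen and therefore given without a test. There were 0.254, 0.365 and 0.237 Nampt counts for each Lep count in Egr1+/+ mice, and the ratios were 0.572, 0.681 and 0.907 in Egr1-/- animals. This ratio does not depend on how libraries are scaled.

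Nrg4 (chr9:55220222-55326844, reverse strand), a ligand of the ERBB3 and ERBB4 receptors that brown fat secretes, was the tightest member among Egr1-/- mice. It stood at 40.5, 34.9 and 33.6 CPM in Egr1+/+ mice and at 50.5, 49.7 and 52.9 CPM in Egr1-/- mice. All Egr1-/- mice were above all Egr1+/+ mice, with a log2 fold change of 0.49 (SE 0.112, 95% interval 0.24 to 0.75, edgeR unadjusted p = 0.00176, adjusted p = 0.198) and a DESeq2 adjusted p of 0.0332. Fbxo22, on the opposite strand, shares 368 of the 6075 exonic bases of Nrg4, and the strand setting of the counting is not given in the sources used here. Fbxo22 pointed the other way, with means of 22.2 and 19.3 CPM (log2 fold change -0.20, edgeR adjusted p = 0.613), and the pseudogene Gm15625 in the same region had at most 2 counts in any mouse.

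The other 4 members of low or middling level had a larger SE than Lep, Adipoq, Retn, Nampt and Nrg4, as Cfd also had. Apln (chrX:48025146-48034853, reverse strand), the ligand of the vascular receptor APLNR, stood at 18.4, 9.62 and 9.26 CPM in Egr1+/+ mice and at 9.49, 5.04 and 8.44 CPM in Egr1-/- mice. Its log2 fold change of -0.70 (SE 0.310, edgeR adjusted p = 0.469) was the lowest of the members, but it was -0.32 without Egr1+/+ mouse 1 and -0.88 without Egr1-/- mouse 1. Metrnl (chr11:121701544-121716306, forward strand) stood at 3.23, 5.66 and 5.08 CPM against 4.02, 2.07 and 2.78 CPM, with a log2 fold change of -0.65 (SE 0.295, edgeR adjusted p = 0.480) and overlapping mice. Rbp4 (chr19:38116629-38125281, reverse strand), the retinol carrier of plasma, was scarce, with 64 to 162 counts per library. It stood at 4.72, 4.59 and 2.46 CPM against 4.38, 3.36 and 2.07 CPM, and a log2 fold change of -0.26 had a 95% interval of -1.0 to 0.49. It was -0.01 without Egr1-/- mouse 3 and -0.53 without Egr1-/- mouse 1. Angptl4 (chr17:33773750-33781830, reverse strand) stood at 89.7, 172 and 142 CPM against 169.5, 119 and 136 CPM. With a log2 fold change of 0.07 and a 95% interval of -0.45 to 0.59, neither a modest increase nor a modest decrease of Angptl4 could be detected at this replication.

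**Figure D3:**
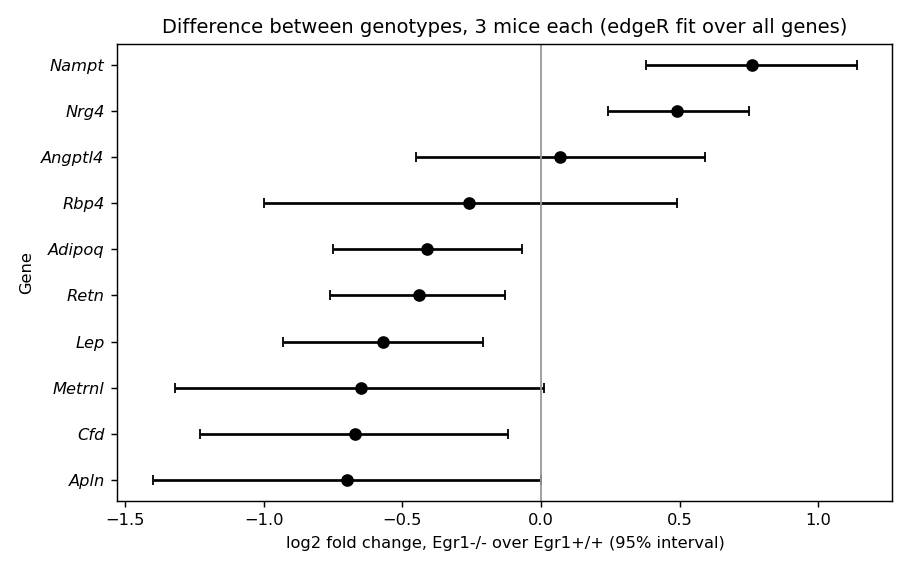
Log2 fold change of each member, Egr1-/- over Egr1+/+, with its 95% interval from the edgeR fit over all genes, 3 mice per genotype. The intervals of Nampt and Nrg4 lie above 0, those of Lep, Adipoq, Retn and Cfd lie below it, and those of the other 4 reach or span it, before any adjustment for the number of genes.

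In whole tissue, fewer cells of a type and less RNA per cell cannot be told apart, so each member was also set beside the mature adipocyte markers of the same mouse. The mean log2 CPM of 12 such markers was 8.04, 7.93 and 7.91 for the Egr1+/+ mice, against 8.14, 7.99 and 8.17 for the Egr1-/- mice (difference 0.14, exact two-sided permutation p = 0.2). Relative to this level, Lep differed by -0.72, Retn by -0.58 and Adipoq by -0.55 on the log2 scale, all 3 Egr1-/- mice lying below all 3 Egr1+/+ mice. Apln, at -0.81, separated the genotypes on this scale too, although it overlapped in CPM. Its nearest mice stood at -4.69 (Egr1+/+) and -4.88 (Egr1-/-), and which cells made its transcripts was not measured. Nampt differed by 0.62 and Nrg4 by 0.36, with all Egr1-/- mice above. Each of these 6 had an exact permutation p of 0.1, the smallest that 3 mice against 3 can give. The share of all genes that separate the genotypes on this scale was not computed. Cfd at -0.75, Metrnl at -0.79, Rbp4 at -0.40 and Angptl4 at -0.03 overlapped, with exact permutation p values of 0.2, 0.2, 0.5 and 1.0. The median over the 10 members was -0.56, against a median log2 fold change of -0.43 without the markers. Because the mean log2 marker level was itself 0.14 higher in Egr1-/- mice, every value on this scale is lower by that amount than in log2 CPM. The direction of the marker level depended on the summary. In summed CPM, to which Fabp4 and Lpl add most, the same 12 markers stood at 8464, 8330 and 7800 in Egr1+/+ mice. The sums were 8101, 7090 and 8160 CPM in Egr1-/- mice.

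**Figure D4:**
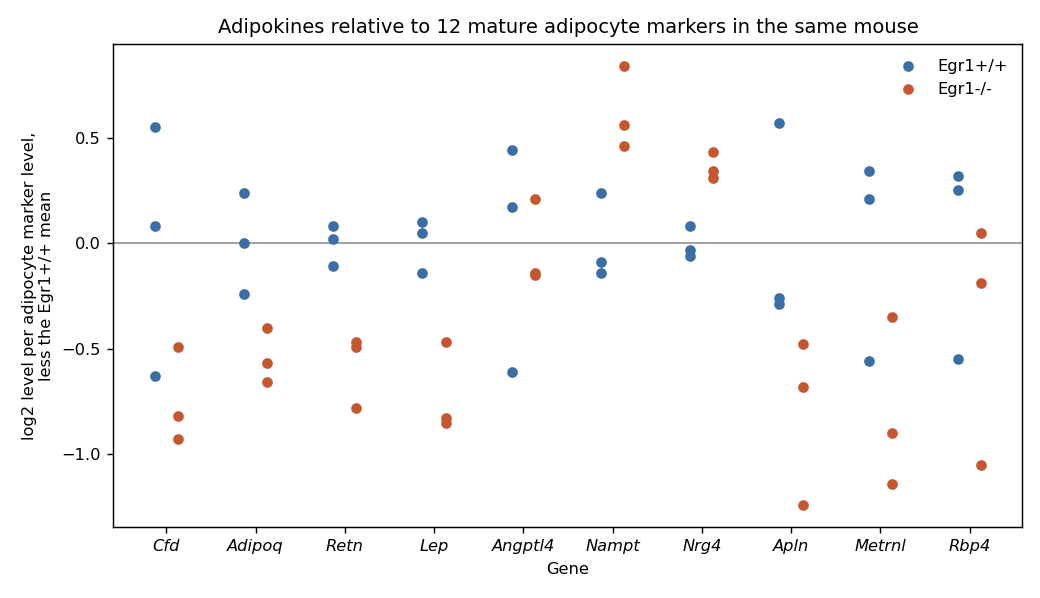
Log2 level of each member less the mean log2 level of 12 mature adipocyte markers in the same mouse, shown relative to the Egr1+/+ mean of that gene, 1 point per mouse. The genotypes do not overlap for Lep, Adipoq, Retn and Apln, where Egr1-/- points are lower, nor for Nampt and Nrg4, where they are higher.

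The adipocyte markers themselves were not uniform. Of the 12, 7 had a positive and 5 a negative log2 fold change, with a median of 0.06. At an unadjusted p under 0.05, 2 were higher and 0 were lower. Dgat2, which completes triglyceride synthesis, had means of 161 and 274.5 CPM (log2 fold change 0.77, edgeR adjusted p = 0.269, DESeq2 adjusted p = 0.0120), and Lipe, the hormone-sensitive lipase, had means of 207 and 264 CPM (log2 fold change 0.36, edgeR adjusted p = 0.378). Plin1 and Pparg, at 0.11 and -0.06, differed by less than their SE of 0.178 and 0.141. Markers of other cell types differed as well. All 7 tested brown and beige adipocyte markers were higher at an unadjusted p under 0.05, with a median log2 fold change of 0.97 and a summed level of 525 to 672 CPM in Egr1+/+ mice and 928 to 1548 CPM in Egr1-/- mice. Ucp1, the uncoupling protein of thermogenic mitochondria, had means of 340.5 and 792 CPM (log2 fold change 1.22, edgeR adjusted p = 0.151, DESeq2 adjusted p = 7.66e-08).

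Of 7 stromal progenitor markers, all were negative and 6 had an unadjusted p under 0.05, the summed level being 820.5 to 883 CPM in Egr1+/+ mice and 455 to 623 CPM in Egr1-/- mice. Of 6 macrophage markers, all were negative and 4 had an unadjusted p under 0.05, with sums of 232 to 324 CPM and 163 to 223 CPM. Of 5 Schwann cell markers, 4 were lower at that threshold, with sums of 245 to 341 CPM and 159 to 206 CPM. Of 6 lymphocyte markers 1 was higher, and of 5 endothelial markers 1 was lower. Skeletal muscle markers varied most between animals, from 208 to 3345 CPM in Egr1+/+ mice and from 96.6 to 2609 CPM in Egr1-/- mice, with 0 of 8 at an unadjusted p under 0.05. Mammary epithelial markers summed to 0.815 to 9.99 CPM over all mice, with 0 of 5 at that threshold. By edgeR's adjusted p no marker of any of these lists was called. By DESeq2's, 1 mature adipocyte marker and 6 brown and beige markers were higher and 3 stromal progenitor, 2 macrophage and 2 Schwann cell markers were lower. Their part in the values of the members was not tested.

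Receptors of the members were expressed in the same depot. Of 10 tested receptors, 0 were higher and 1 was lower at an unadjusted p under 0.05, and their median log2 fold change was 0.01. The leptin receptor gene Lepr stood at means of 8.32 and 8.51 CPM (log2 fold change 0.03, SE 0.223). The adiponectin receptor genes Adipor1 and Adipor2 had log2 fold changes of 0.04 and -0.07 (SE 0.142 and 0.136). The NRG4 receptors had log2 fold changes of 0.47 for Erbb4 (SE 0.236, edgeR adjusted p = 0.530) and -0.16 for Erbb3 (SE 0.198). The apelin receptor gene Aplnr had means of 32.4 and 23.8 CPM (log2 fold change -0.44, SE 0.236, edgeR adjusted p = 0.566), the same sign as its ligand. Cap1, reported as a resistin-binding protein, had a value of -0.02, and Kit, reported as a receptor for METRNL, had one of -0.28 (edgeR adjusted p = 0.404). Stra6, the RBP4 receptor, had mean levels of 0.204 and 0.290 CPM and was too low to test. In the leptin signalling list, which includes Lepr, 8 of 10 genes were positive and 2 were negative, with 0 at an unadjusted p under 0.05 in either direction and a median of 0.14. The lowest unadjusted p was that of Stat3, the main transcription factor of leptin signalling, with means of 49.7 and 58.3 CPM (log2 fold change 0.23, edgeR adjusted p = 0.479).

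Adiponectin is a C1q/TNF-type protein with several relatives. Of 10 tested genes for adiponectin assembly and C1q/TNF relatives, 3 were lower at an unadjusted p under 0.05 and 0 were higher. C1qtnf7 had means of 7.67 and 3.87 CPM (log2 fold change -0.98, edgeR adjusted p = 0.193, DESeq2 adjusted p = 0.00875), C1qtnf2 a log2 fold change of -0.72 (edgeR adjusted p = 0.332) and C1qtnf1 one of -0.54 (edgeR adjusted p = 0.315). In the alternative complement pathway, in which adipsin cleaves factor B, C3ar1, the receptor of the C3a fragment, had means of 9.46 and 5.63 CPM (log2 fold change -0.75, edgeR adjusted p = 0.220, DESeq2 adjusted p = 0.0360). C3, the central component, had means of 182 and 253 CPM (log2 fold change 0.48, edgeR adjusted p = 0.561). Egr1-/- mouse 1 lay below every Egr1+/+ mouse for C3, and the value was 0.75 without it and 0.24 without Egr1-/- mouse 2. Cfb, factor B itself, had means of 0.820 and 0.610 CPM (log2 fold change -0.41, SE 0.428), a value that was 0.07 without Egr1+/+ mouse 2.

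The lipase that ANGPTL4 restrains and its partners formed another list. Lpl had a log2 fold change of -0.09 (SE 0.144) and Gpihbp1, which carries the lipase to the capillary lumen, one of -0.18 (SE 0.144). Among 8 genes of this group 1 was higher and 1 was lower at an unadjusted p under 0.05, namely Lmf1, a maturation factor for lipases, at 0.44 (edgeR adjusted p = 0.328) and Angptl2 at -0.40 (edgeR adjusted p = 0.434). Around Nampt, 10 of 12 NAD metabolism genes were positive, their median was 0.16, and 2 had an unadjusted p under 0.05. These were Sirt3, a mitochondrial NAD-dependent deacylase, with means of 5.16 and 7.95 CPM (log2 fold change 0.62, edgeR adjusted p = 0.256, DESeq2 adjusted p = 0.132), and Cd38, an NAD-consuming enzyme, at 0.40 (edgeR adjusted p = 0.325). Nnmt, which methylates the nicotinamide that Nampt would use, had a log2 fold change of -0.21 (SE 0.123).

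Relatives of the members within their own families were mostly scarce, with 5 of 12 high enough to test. Retnla, the resistin-like gene of alternatively activated macrophages, stood at means of 26.6 and 13.2 CPM (log2 fold change -1.01, edgeR adjusted p = 0.245, DESeq2 adjusted p = 0.00592), and Metrn, the relative of Metrnl, had one of -0.35 (SE 0.411). Among 14 testable other secreted factors of fat, 4 were lower at an unadjusted p under 0.05 and 0 were higher, with a median of -0.22. Igf1, the growth factor, had means of 282 and 162 CPM (log2 fold change -0.80, edgeR adjusted p = 0.160, DESeq2 adjusted p = 1.69e-04), and Rarres2, which encodes chemerin, had means of 127 and 76.2 CPM (log2 fold change -0.73, edgeR adjusted p = 0.272, DESeq2 adjusted p = 0.0214). Ccl2, a monocyte chemoattractant, had a log2 fold change of -1.20 at means of 1.20 and 0.522 CPM. Bmp4 had a value of -0.35 (SE 0.259), and Fgf21 had at most 2 counts in any mouse. By edgeR's adjusted p, 0 genes of any of these pathway lists were called, whereas DESeq2 called, among others, 1 adiponectin relative and 2 other secreted factors, all lower.

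**Figure D5:**
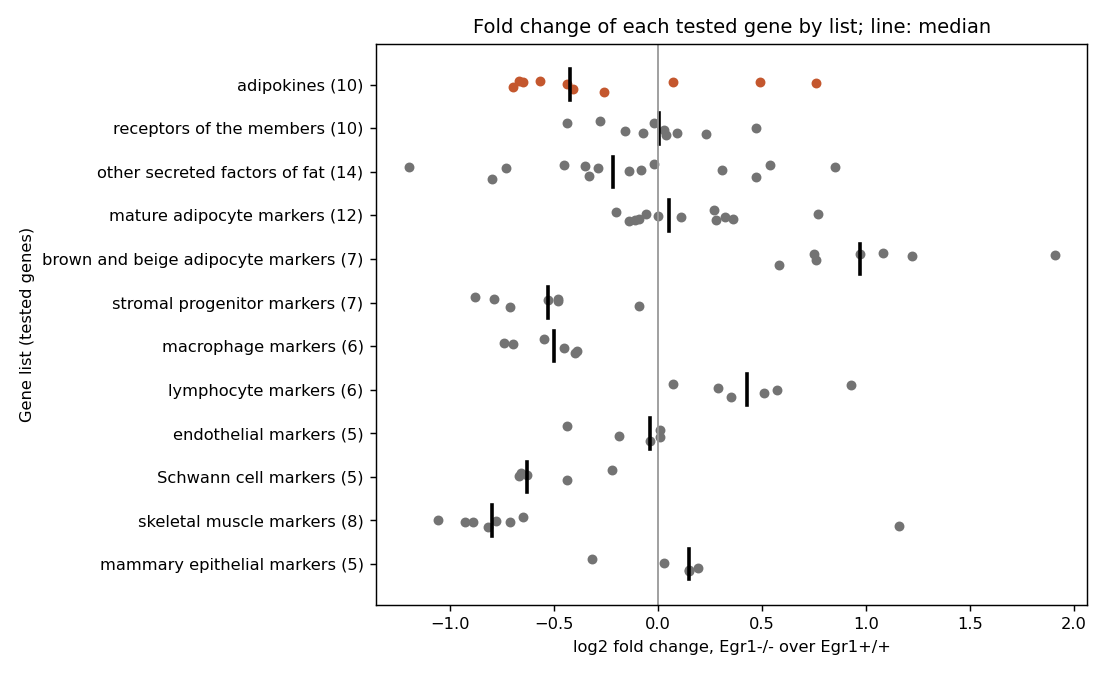
Log2 fold change, Egr1-/- over Egr1+/+, of every tested gene of the members (orange), of their receptors, of other secreted factors and of 9 cell marker lists, with the number tested in brackets and the median as a black line. The members' median of -0.43 lies below that of the mature adipocyte markers, 0.06, while the brown and beige markers all lie above 0 and the stromal progenitor and macrophage markers all lie below it.

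Genes whose level followed a member across the 6 mice were named for the members at either end of the fold changes, as a description over mice that also differ in genotype. Among 7269 genes with a mean of at least 10 CPM, those most like Nampt were Atg2a, Cyc1 and Otop1, with Pearson r of 0.988, 0.987 and 0.987 in log2 CPM. Those most like Apln were Alg14, Pmp22 and Nudt3, with r of 0.991, 0.987 and 0.987.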

How the data were processed

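RNA from SC-WAT of 6 mice was sequenced after ribosomal RNA depletion. The authors aligned reads with TopHat2 and Bowtie2 and counted them per GENCODE gene with featureCounts, and the deposited values were raw counts, 1 table per mouse. Gene coordinates and exon lengths were read from GENCODE M21 (46488 of 47069 identifiers matched). Here counts were scaled by TMM and filtered with filterByExpr, and the genotypes were compared with edgeR 4.0.16 (quasi-likelihood test, Benjamini-Hochberg adjustment over 17667 genes, R 4.3.3). CPM used the TMM-scaled library sizes. SE is the log2 fold change over the root of F. Single values were compared by exact two-sided permutation over mice, with a prior count of 2 for log2 CPM. The mice were separate animals, so p-values refer to the spread between animals. Some shared a litter, the sources do not say which, and the reported fit had no term for litter. DESeq2 1.42.0, voom in limma 3.58.1, other scalings and filters, a replicate block and the omission of each mouse were tried. The scripts recovered known changes in simulated data, but those changes were larger than the fold change of any member. They were also placed only in genes above a minimum abundance, so the power to detect changes of the members was not measured. Members and lists were chosen with earlier results of these data known. Named genes were all members, Egr1, up to 3 genes of lowest p per list, others chosen by role, and the genes most like the members with the lowest and highest fold change. Genes overlapping Nrg4 and Nampt were added after the values were seen. Some genes of the lists are not reported here.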

Additional observations from a re-analysis of the deposited data

How the results depend on the processing

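The number of genes called over the whole table depended strongly on the method. It was 3 of 17667 in the reported fit. DESeq2 called 334 and the fit with no filter 552, each of 38261 genes with any count. Of the 17667 genes, 79 were called with total-count scaling, 1 by limma-voom, and 0 with upper-quartile scaling or with the replicate block. With at least 10 counts in each mouse it was 0 of 15728. Leaving out 1 mouse gave 0 to 59 genes, the 59 arising without Egr1-/- mouse 1. Among the 10 members, 0 were called in the reported fit and 3 by DESeq2, beside 334 of 38261 genes. With no filter 4 were called (Lep, Cfd, Apln and Nampt), beside 552 of 38261 genes. Under each of the other alternatives, including every omission of a mouse, 0 members were called. The median fold change of the members was -0.38 to -0.52 without single Egr1-/- mice and -0.35 to -0.49 without single Egr1+/+ mice, and -0.59 with total counts, a scaling that moved the median of all genes by -0.147. The median relative to the adipocyte markers was -0.48 to -0.63 when mice were left out. Of 150 alternative values for single members, 140 kept direction and side of the threshold, 7 crossed it and 3 turned sign, all 3 for Angptl4, which was -0.10 with total counts, -0.17 without Egr1+/+ mouse 1 and -0.08 without Egr1-/- mouse 1, within a range of -0.17 to 0.29 over the omissions. Relative to the adipocyte markers 4 of 90 values turned sign, again all for Angptl4, at 0.19 and 0.06 without Egr1+/+ mice 2 and 3 and at 0.04 and 0.03 without Egr1-/- mice 2 and 3, within a range of -0.33 to 0.19 over the omissions. The cause was not tested. Replicate numbers are not stated to mark litters. Correlations between same-number mice, in deviations from the genotype means, were -0.0888, 0.106 and -0.126, which cannot show whether a number marks littermates. With the replicate block the log2 fold changes of Lep and Nampt were -0.58 and 0.75 (edgeR adjusted p = 0.250 and 0.291). Rbp4, Apln and Metrnl, the members of lowest count, varied by 1.75 to 2.12 times within a genotype. The spread was not particular to them. Cfd and Angptl4 varied by 2.12 and 1.92 times among Egr1+/+ mice and by 1.20 and 1.42 times among Egr1-/- mice.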
